A study of Rattus norvegicus with 6 samples.

Results

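A set of 10 genes that mark retinal ganglion cells or their axons was followed in RNA-sequencing libraries of the neuroretina, dissected from male rats of the Goto-Kakizaki (GK) strain, which inherits type 2 diabetes without obesity. The genes were taken by name: Rbpms, Pou4f1, Pou4f2, Isl2, Slc17a6, Thy1, Sncg and the neurofilament genes Nefl, Nefm and Nefh. All 10 were found among the 28358 genes of the tables, and all 10 were among the 13242 genes that passed the filter on low counts. The 3 samples of the spironolactone group came from retinas taken 2 months after a single injection into the vitreous of 5 µL of PLGA microspheres, a degradable polymer carrier, holding 6.2 µg of spironolactone, which blocks the mineralocorticoid receptor. The 3 samples of the non-loaded group had the same volume of microspheres with no drug. Rats of both groups were 14 months old, diabetic by strain and injected, so no group here shows the ganglion cell genes in a healthy or an uninjected eye. Whether the samples are separate animals is not stated in the labels, so the p-values refer to the spread between samples, some of which may be technical. Libraries held 10575220 to 12589466 expected counts in the spironolactone group and 9996198 to 11966769 in the non-loaded group.

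Retinal ganglion cells are the output neurons of the retina. They collect signals from bipolar and amacrine cells and send axons along the nerve fibre layer into the optic nerve, and their loss is the basis of visual loss in glaucoma and is also described in diabetic retinas. Neurofilaments are the intermediate filaments of large axons, assembled from a light, a medium and a heavy chain that are encoded by Nefl, Nefm and Nefh. RBPMS is an RNA-binding protein found in nearly all ganglion cells, POU4F1, POU4F2 and ISL2 are transcription factors of ganglion cells, SLC17A6 is the vesicular glutamate transporter VGLUT2 that loads their synaptic vesicles, THY1 is a surface glycoprotein and SNCG is gamma-synuclein. In bulk retina, fewer ganglion cells and less RNA per cell cannot be told apart.

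The promoters of the transcription factor genes are shown because factors that bind the cyclic AMP response element and related sites, among them the products of Jun, Atf3 and Cebpg, had changed transcripts in these retinas. RefSeq promoter windows, from 250 bases before to 50 after the start of the gene, were given for 5 of the 10 genes (Pou4f1, Pou4f2, Isl2, Slc17a6 and Sncg). Capitals mark TATAA in the first pair and the cyclic AMP response element TGACGTCA in the last.
Pou4f1, GRCr8 chr15:87674594-87674893, minus strand: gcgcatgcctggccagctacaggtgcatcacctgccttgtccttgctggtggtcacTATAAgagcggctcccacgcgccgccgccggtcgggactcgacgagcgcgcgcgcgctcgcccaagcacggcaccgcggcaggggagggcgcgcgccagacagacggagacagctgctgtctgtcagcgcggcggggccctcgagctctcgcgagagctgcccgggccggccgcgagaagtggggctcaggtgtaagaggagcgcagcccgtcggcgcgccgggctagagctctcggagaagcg
Pou4f2, GRCr8 chr19:46390708-46391007, plus strand: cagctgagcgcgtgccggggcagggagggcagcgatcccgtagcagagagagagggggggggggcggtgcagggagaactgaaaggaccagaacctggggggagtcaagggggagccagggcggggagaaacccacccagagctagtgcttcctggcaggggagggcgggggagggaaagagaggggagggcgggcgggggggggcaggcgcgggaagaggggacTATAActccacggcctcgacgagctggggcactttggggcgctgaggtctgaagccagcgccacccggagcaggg
Isl2, GRCr8 chr8:64819629-64819928, plus strand: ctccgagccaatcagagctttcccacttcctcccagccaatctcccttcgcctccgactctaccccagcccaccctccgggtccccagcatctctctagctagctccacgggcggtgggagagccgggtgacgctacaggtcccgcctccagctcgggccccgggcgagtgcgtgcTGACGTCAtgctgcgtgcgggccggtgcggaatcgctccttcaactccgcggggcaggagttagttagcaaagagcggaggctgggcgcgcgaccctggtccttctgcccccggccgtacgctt
Both strands were searched. TGACGTCA was found in the Isl2 window alone among these 5, with 1 match, and in 1.83% of the 33469 RefSeq promoter windows of the same length. The AP-1 site TGACTCA (4.63% of all windows) and the core of the amino acid response element, TGATGNAA (3.98%), had no match in any of the 5. TATAA, found in 26.2% of all windows, had 1 match in Pou4f1 and 1 in Pou4f2. These are matches of letters, and binding was not measured.

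Transcript levels of the 10 genes spanned a wide range. Per unit of transcript length, in TPM (transcripts scaled to a common total per library), the mean level over the 6 libraries was highest for Sncg at 375 TPM, followed by Thy1 at 278 TPM and Nefl at 236 TPM. Next were Nefh at 89.8 TPM and Nefm at 84.8 TPM, whose ranges over the libraries overlapped, so their order is not resolved. Slc17a6 (55.9 TPM), Rbpms (23.8 TPM) and Pou4f1 (14.6 TPM) followed with ranges that did not touch those of their neighbours. Pou4f2 (6.37 TPM) and Isl2 (5.67 TPM) were lowest and overlapped. Every gene of the set was above 1 TPM in every library. Neurofilaments and Thy1 are also found in other cells, so these levels do not by themselves show that the RNA came from ganglion cells.

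None of the 10 genes passed the test between spironolactone and non-loaded retinas. With edgeR's quasi-likelihood test at an adjusted p of 0.05, 0 were higher and 0 lower, against 2.63% of all tested genes called. No gene of the set had an unadjusted p under 0.05, against 15.8% of all tested genes, and limma-voom and DESeq2 also called 0, though DESeq2 gave no adjusted p for Rbpms, Pou4f1, Pou4f2 and Isl2. For 0 of the 10 were the normalised counts of the groups free of overlap, against 20.9% of all tested genes. Of the log2 fold changes 3 were positive and 7 negative, with a median of −0.05 against 0.00 over all tested genes.

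**Figure D1:**
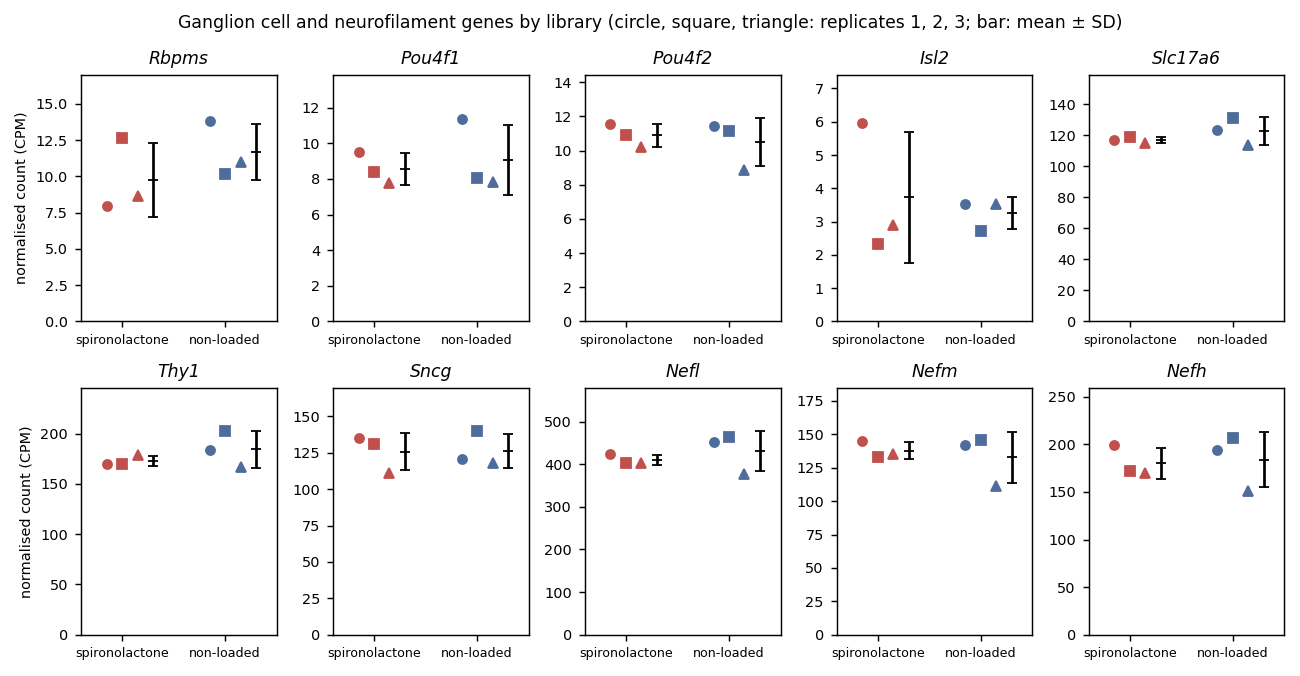
Normalised read counts (CPM, corrected for library size with TMM factors; vertical axis from 0) of the 10 genes in each library, spironolactone at left and non-loaded at right; symbols are single libraries and the bar is the mean ± SD of 3. The groups overlap in every panel, and non-loaded replicate 3 is lowest for Slc17a6, Thy1, Pou4f2 and the neurofilament genes.

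The transcription factor and RNA-binding genes had the fewest reads, from 29 to 159 counts per library. Rbpms, the broadest marker of the class, measured 7.93, 12.7 and 8.67 CPM in spironolactone retinas, against 13.9, 10.2 and 11.0 CPM in non-loaded retinas. Spironolactone replicates 1 and 3 were the lowest, but replicate 2 exceeded 2 of the non-loaded libraries. The log2 fold change was −0.25 ± 0.18 (SE; edgeR adjusted p = 0.56), and its 95% interval ran from −0.63 to 0.14. Rbpms is annotated with 2 transcripts, and the mean length that the authors' quantification assigned to it was 927, 972 and 885 bases in the spironolactone libraries, against 1060, 1060 and 951 bases in the non-loaded libraries. This is the one gene of the set whose assigned length varied between libraries. On log2(TPM + 1), which divides by that length, the log2 fold change of Rbpms was −0.09.

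Pou4f1, which encodes BRN3A, measured 9.52, 8.38 and 7.77 CPM with spironolactone, against 11.3, 8.02 and 7.81 CPM without. Non-loaded replicate 1 stood above the rest, and the log2 fold change was −0.07 ± 0.18 (SE; edgeR adjusted p = 0.897). Pou4f2, which encodes BRN3B and is needed for ganglion cell differentiation and survival in mice, measured 11.6, 10.9 and 10.2 CPM with spironolactone, against 11.4, 11.2 and 8.88 CPM without. Its log2 fold change was 0.06 ± 0.15 (SE; edgeR adjusted p = 0.905). The ratio of Pou4f2 to Pou4f1, as a ratio of TPM, was 0.459 ± 0.020 in spironolactone retinas and 0.423 ± 0.070 in non-loaded retinas (SD, n = 3 each; exact permutation test, two-sided, p = 0.4).

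Isl2, which in mice marks ganglion cells that project to the opposite side of the brain, had the fewest reads and the widest interval. It measured 5.97, 2.31 and 2.89 CPM with spironolactone, from 64, 29 and 32 counts, against 3.54, 2.70 and 3.54 CPM without. The first spironolactone library alone held the group mean up. The log2 fold change of 0.18 ± 0.32 (SE; edgeR adjusted p = 0.847) became −0.33 without that library and was positive in every other fit.

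The genes with more reads were measured more tightly. Slc17a6 stood at 117.1, 118.5 and 115.1 CPM in spironolactone retinas, against 123.4, 131.2 and 113.5 CPM in non-loaded retinas. The log2 fold change was −0.07 ± 0.06 (SE; edgeR adjusted p = 0.652). Thy1 measured 170.0, 169.8 and 178.3 CPM with spironolactone, against 184.0, 202.7 and 166.4 CPM without. All 3 spironolactone libraries lay between non-loaded replicates 2 and 3, and the log2 fold change was −0.09 ± 0.07 (SE; edgeR adjusted p = 0.548), the smallest p of the set. Sncg measured 134.7, 131.2 and 111.0 CPM with spironolactone, against 120.7, 139.8 and 118.2 CPM without, a log2 fold change of −0.01 ± 0.08 (SE; edgeR adjusted p = 0.981).

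Nefl was the most heavily read gene of the set, with 4457 to 5316 counts per library. It measured 424.3, 403.4 and 403.0 CPM in spironolactone retinas, against 450.9, 463.7 and 376.5 CPM in non-loaded retinas. The spironolactone values were close together and fell inside the non-loaded range. The log2 fold change was −0.07 ± 0.07 (SE; edgeR adjusted p = 0.698). Nefm measured 145.2, 133.2 and 134.9 CPM with spironolactone, against 141.9, 145.8 and 111.0 CPM without (log2 fold change 0.05 ± 0.08, SE; edgeR adjusted p = 0.819). Nefh, the chain whose long tail is heavily phosphorylated in axons, measured 198.9, 171.6 and 170.1 CPM with spironolactone, against 194.4, 206.5 and 151.1 CPM without (log2 fold change −0.03 ± 0.09, SE; edgeR adjusted p = 0.927). For each chain non-loaded replicate 3 was the lowest of the 6.

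The intervals show which differences these libraries leave possible. For 6 genes (Slc17a6, Thy1, Sncg, Nefl, Nefm and Nefh) the whole 95% interval lay within a 1.25-fold change in either direction, the extreme bounds being 0.848-fold for Thy1 and 1.17-fold for Nefm. These genes had at least 1193 counts in every library. For Rbpms, Pou4f1, Pou4f2 and Isl2, with at most 159 counts, the intervals reached from 0.646-fold (Rbpms) to 1.81-fold (Isl2). Fold changes inside those intervals could not be told from no change in these libraries.

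**Figure D2:**
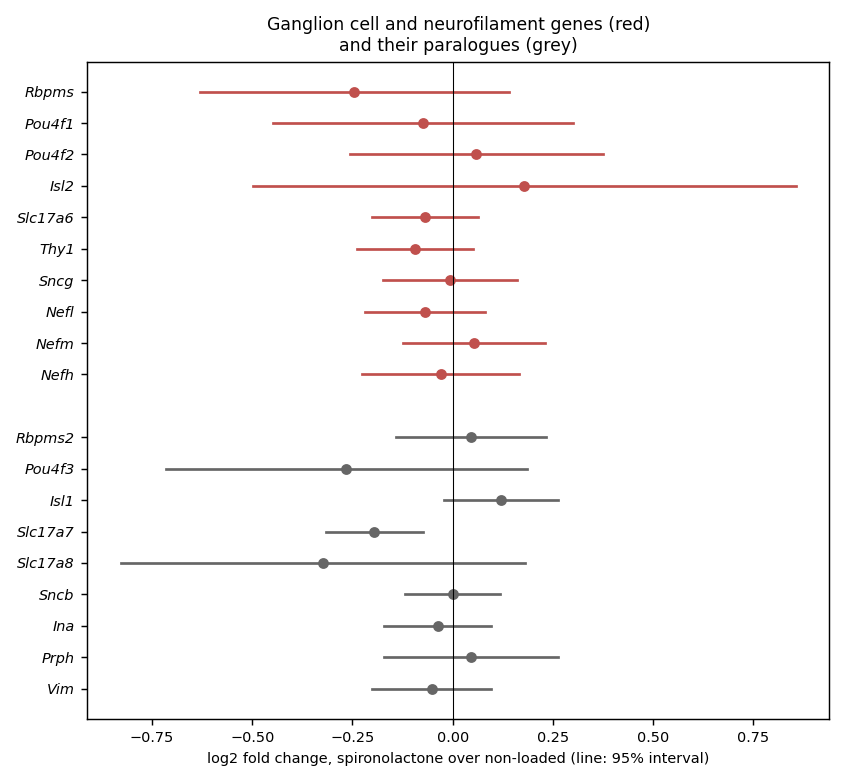
Log2 fold change of spironolactone over non-loaded retinas (horizontal axis) for the 10 ganglion cell and neurofilament genes in red and 9 related genes in grey, with 95% intervals as lines. All red intervals cross 0; the widest are those of Isl2 (−0.50 to 0.86) and Rbpms, and among the grey ones only that of Slc17a7 does not cross 0.

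Close relatives of the genes of the set were read beside it. Slc17a7, the VGLUT1 transporter of photoreceptors and bipolar cells, averaged 1542 TPM in spironolactone and 1757 TPM in non-loaded retinas, far above Slc17a6 at 55.0 TPM in spironolactone and 56.9 TPM in non-loaded retinas. Its normalised count was 2014 ± 64 CPM with spironolactone and 2306 ± 92 CPM without (SD, n = 3 each), a log2 fold change of −0.20 ± 0.06 (SE; edgeR adjusted p = 0.0889). It did pass with DESeq2, limma-voom, robust shrinkage or no filter on low counts, and without non-loaded replicate 3 (adjusted p from 0.00997 to 0.0499). Whether the difference between Slc17a7 and Slc17a6 was itself significant was not tested. Isl1, which is also made in bipolar and amacrine cells, averaged 92.9 TPM with spironolactone and 84.5 TPM without, where Isl2 averaged 6.09 TPM with spironolactone and 5.24 TPM without. Sncb stood at 1023 TPM with spironolactone and 1011 TPM without, above Sncg at 376 TPM with spironolactone and 374 TPM without. Ina, the alpha-internexin partner of neurofilaments in central axons, averaged 81.7 TPM with spironolactone and 82.7 TPM without, close to Nefm and Nefh. Its log2 fold change was −0.04 ± 0.06 (SE; edgeR adjusted p = 0.832). Prph (0.05), Vim (−0.05), Rbpms2 (0.05), Pou4f3 (−0.27) and Slc17a8 (−0.32) had log2 fold changes that did not pass either (edgeR adjusted p from 0.557 to 0.89). In all, 0 of these 9 related genes passed with edgeR, against 2.63% of all tested genes. An unadjusted p under 0.05 was reached by 1 of the 9, against 15.8% of all tested genes.

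Summed levels did not differ beyond the spread between libraries. The 3 neurofilament genes together held 441.0, 390.5 and 395.0 TPM in spironolactone retinas, against 436.5, 438.6 and 362.4 TPM in non-loaded retinas (log2 difference −0.01, exact permutation test, two-sided, p = 1). The other 7 genes together held 797.3, 750.4 and 707.1 TPM with spironolactone, against 760.6, 812.0 and 726.4 TPM without (log2 difference −0.03, exact permutation test, p = 0.7).

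Ratios between the neurofilament chains were compared within each library. The ratio of Nefm to Nefl, as a ratio of TPM, was 0.382, 0.368 and 0.374 in spironolactone retinas, against 0.351, 0.351 and 0.329 in non-loaded retinas. The groups did not overlap, and the ratio was higher in 3 of 3 spironolactone libraries, with means of 0.374 ± 0.007 with spironolactone and 0.344 ± 0.013 without (SD, n = 3 each). The log2 difference was 0.12 with an exact two-sided permutation p of 0.1, which is the smallest that 3 against 3 can give and cannot pass 0.05. Adjusted over the 5 summed values and ratios tested it was 0.5. Leaving out any one library kept the log2 difference between 0.09 and 0.14. The ratio of Nefh to Nefl was 0.411, 0.374 and 0.370 with spironolactone, against 0.378, 0.391 and 0.352 without, and these groups overlapped (log2 difference 0.04, exact permutation p = 0.6). A ratio within a library shows only that the chains differed from each other. In the RefSeq GRCr8 assembly Nefl and Nefm lie beside each other on chromosome 15 with no other protein-coding gene between them.

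**Figure D3:**
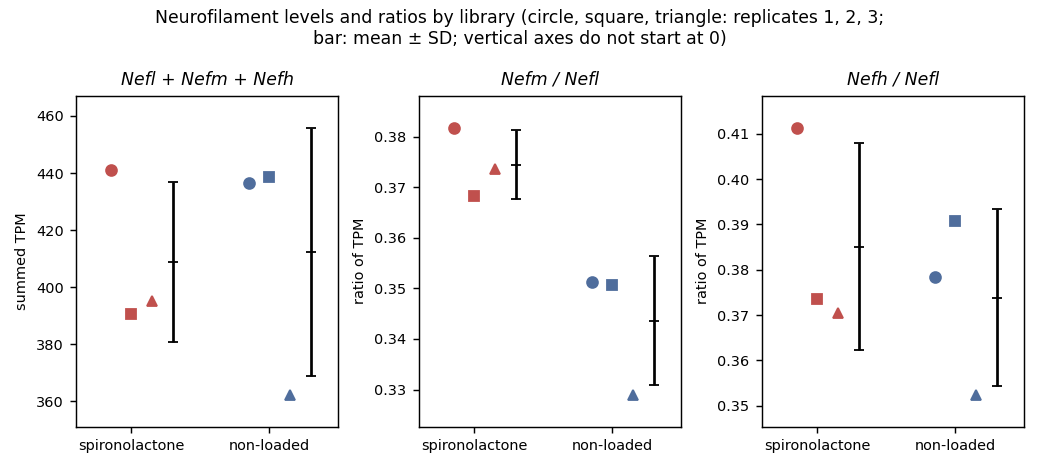
Summed TPM of Nefl, Nefm and Nefh, and ratios of TPM of Nefm to Nefl and of Nefh to Nefl, in each library (spironolactone left, non-loaded right; symbols are libraries, bars mean ± SD of 3; vertical axes do not start at 0). The 3 spironolactone libraries have Nefm to Nefl ratios of 0.368 to 0.382, above all non-loaded libraries, while the other panels overlap.

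The neurofilament genes were low and high in the same libraries. Non-loaded replicate 3 was the lowest of the 6 for 6 of the 10 genes (Pou4f2, Slc17a6, Thy1, Nefl, Nefm and Nefh), and non-loaded replicate 2 was the highest for 6 (Slc17a6, Thy1, Sncg, Nefl, Nefm and Nefh). In all, 7 of the 10 genes had a larger coefficient of variation in non-loaded than in spironolactone retinas. The same share over all tested genes was not computed, so this is not shown to be particular to the set. For Nefl it was 2.97% in spironolactone and 10.9% in non-loaded retinas, and counting error alone would give 1.45%. For Nefm it was 4.71% in spironolactone and 14.3% in non-loaded retinas, with 2.56% from counting. Nefm and Nefh varied together over the 6 libraries, with Pearson's r of 0.933 (exact permutation p = 0.00278) and Spearman's rho of 0.943 (exact permutation p = 0.0167), and r was 0.978 without the 2 libraries farthest from the median of Nefm. For Nefl and Nefh, r was 0.942 (exact permutation p = 0.00972), rho 0.943 (exact p = 0.0167), and r was 0.824 without the 2 farthest libraries. Nefl and Nefm had the weakest r of the neurofilament pairs, 0.853 (exact permutation p = 0.00833), and 0.747 without the 2 farthest libraries. The highest r of all pairs was that of Pou4f2 and Nefm, 0.952 (exact permutation p = 0.0167), so the pattern was not particular to the neurofilament genes. Of the 45 pairs among the 10 genes, 38 had a positive r and 9 an exact p under 0.05. None passed after Benjamini-Hochberg adjustment over the 45 (adjusted exact p = 0.1 for r and 0.25 for rho, both for Nefm with Nefh and for Nefl with Nefh). The share of positive pairs among other genes was not computed. Rbpms did not follow the neurofilament genes, with r of −0.19 to Nefm (exact permutation p = 0.757, rho −0.37, exact p = 0.497, and r −0.25 without the 2 farthest libraries).

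**Figure D4:**
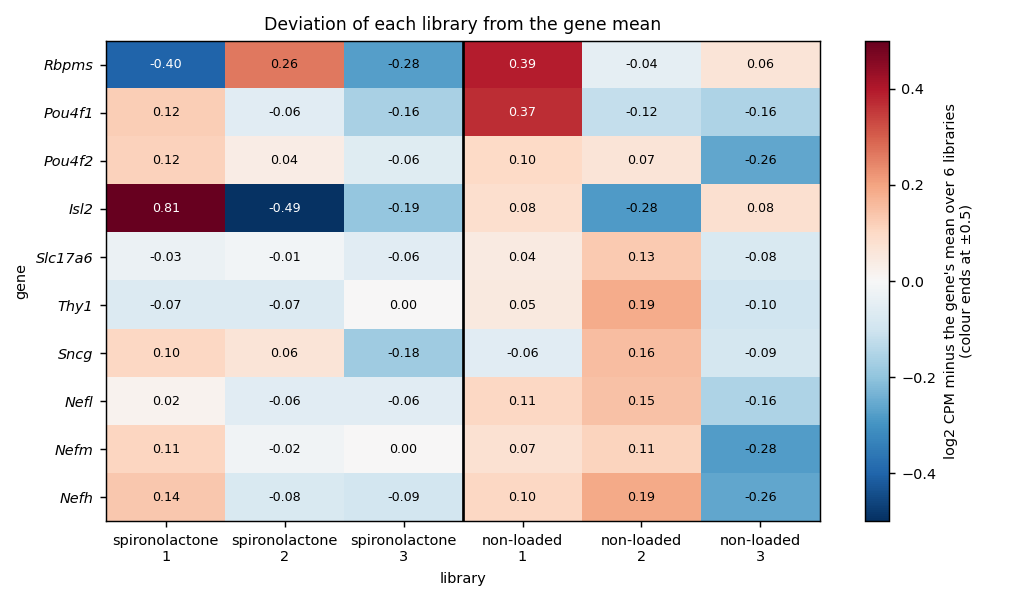
Deviation of each library (columns, spironolactone left of non-loaded) from the mean log2 CPM of each gene (rows) over all 6 libraries, with red above and blue below the mean. Non-loaded replicate 3 lies below the mean for 8 of 10 genes, with −0.28 to −0.16 for the neurofilament genes, and Isl2 in the first spironolactone library (0.81) is the largest deviation.

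The profiles most like the mean standardised profile of the set, among 9664 other genes with at least 10 CPM, were those of Prex2 (r = 0.990), Ech1 (0.982), Grpel2 (0.980), AABR07061178.1 (0.978) and Mapk8ip1 (0.973). These are Pearson correlations over the same 6 libraries, chosen as the highest of many, and serve as a description only. None of the 5 passed the test between the groups, with log2 fold changes of −0.10 to −0.01 (edgeR adjusted p from 0.772 to 0.944). They were picked for following a profile that overlaps between the groups, so this outcome was set by the choice and is no further result.

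Other genes of ganglion cells gave 1 call. Of 46 tested genes, which included pan-neuronal genes such as Tubb3 and Stmn2 and markers of ganglion cell types, 1 was higher and 0 lower, against 1.87% higher and 0.763% lower among all tested genes, and their median log2 fold change was 0.00. DESeq2 called 0 higher and 1 lower. The gene that rose with edgeR was Adcyap1, which encodes the neuropeptide PACAP, a transmitter of the light-sensitive ganglion cells that contain melanopsin. It measured 12.6, 10.5 and 11.3 CPM in spironolactone retinas, against 7.18, 6.45 and 8.47 CPM in non-loaded retinas. All 3 spironolactone libraries were above all non-loaded ones, with a log2 fold change of 0.63 ± 0.16 (SE; edgeR adjusted p = 0.0452). The call is fragile: Adcyap1 passed in 1 of the 6 fits that left out a library (without non-loaded replicate 3, adjusted p = 0.044), with adjusted p from 0.0859 to 0.172 in the other 5 and 0.0953 on log2(TPM + 1). DESeq2 gave it no adjusted p. Opn4, the melanopsin gene itself, named here after its values were seen, measured 25.5, 21.5 and 26.5 CPM with spironolactone, against 21.2, 20.8 and 21.4 CPM without (log2 fold change 0.21 ± 0.10, SE; edgeR adjusted p = 0.352). Cartpt, which encodes the CART peptide of direction-selective ganglion cells in mice, also named after its values were seen, measured 56.1 ± 4.1 CPM with spironolactone and 68.1 ± 3.0 CPM without (SD, n = 3 each) and missed the threshold with edgeR (log2 fold change −0.28 ± 0.07, SE; edgeR adjusted p = 0.054). It was the gene that DESeq2 called lower (adjusted p = 0.0403), and it also passed with robust shrinkage, with no filter or the stricter filter on low counts, and without spironolactone replicate 1 (adjusted p from 0.02 to 0.0466).

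Genes of the axon and its cytoskeleton, among them tubulins, microtubule-associated proteins, kinesins and the proteins of the axon initial segment, had 0 of 50 tested members called with edgeR, against 2.63% of all tested genes, and 0 with DESeq2. Of these, 2 higher and 4 lower had an unadjusted p under 0.05, against 15.8% of all, and the median log2 fold change was −0.03. The smallest p belonged to the tubulin gene Tubb2a, at 59.5 ± 7.0 CPM with spironolactone and 70.9 ± 5.3 CPM without (SD, n = 3 each; log2 fold change −0.25 ± 0.09, SE; edgeR adjusted p = 0.146), and to Gigyf2 (0.18 ± 0.06, adjusted p = 0.163). Gigyf2 is counted here only because it was on the list, and a role in the axon or its cytoskeleton was not tested. Without spironolactone replicate 1, Tubb2a passed (adjusted p = 0.029). Neurotrophins, trophic cytokines and their receptors had 0 of 16 called with edgeR, against 2.63% of all tested genes, and 0 with DESeq2. An unadjusted p under 0.05 was reached by 0 of the 16, against 15.8% of all. Ngfr, the p75 neurotrophin receptor gene, measured 53.9, 62.3 and 60.5 CPM with spironolactone, against 68.3, 59.7 and 69.1 CPM without (log2 fold change −0.15 ± 0.08, SE; edgeR adjusted p = 0.364), and Sort1 had a log2 fold change of −0.09.

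Genes known from injured ganglion cells and regrowing axons had the most calls of the lists read beside the set. Of 38 tested members, 8 rose and 0 fell, against 1.87% higher among all tested genes. This list was chosen with earlier results of these data known. Its count of calls therefore cannot be read as a result about injury genes. The median log2 fold change was 0.05, with 21 positive and 17 negative values. An unadjusted p under 0.05 was reached by 10 higher and 2 lower members, against 15.8% of all tested genes, and for 13 of the 38 the groups did not overlap, against 20.9% of all. Jun, the transcription factor downstream of the DLK kinase in injured ganglion cells, measured 532.5, 505.5 and 591.3 CPM with spironolactone, against 119.4, 171.0 and 317.5 CPM without (log2 fold change 1.42 ± 0.21, SE; edgeR adjusted p = 0.000945). Atf3, induced in many injured neurons, measured 120.6, 145.7 and 135.1 CPM with spironolactone, against 41.8, 46.8 and 83.4 CPM without (log2 fold change 1.21 ± 0.16, SE; edgeR adjusted p = 0.000384). Non-loaded replicate 3 was the highest of its group for both, and it was the lowest library for the neurofilament genes. All 3 spironolactone libraries had more Jun and Atf3 than that library, and also more Nefl (403.0 to 424.3 CPM against 376.5 CPM), Nefm and Nefh. Both comparisons rest on that single library, and a relation between these levels was not tested. Chac1 also rose (1.82, from 1.55 without non-loaded replicate 1 to 2.49 without non-loaded replicate 3). So did Cebpb (1.15), Cebpg (0.49) and Klf9, a repressor of axon growth (0.35). Ddit3 (0.40), which encodes the stress factor CHOP, and Trib3 (0.53), both named outside the rule, were higher too. With robust shrinkage 4 of the list rose, and Jun (adjusted p = 0.221), Atf3 (0.176), Chac1 (0.175) and Trib3 (0.278) did not pass. Ddit3 missed the threshold where spironolactone replicate 2 (0.112), non-loaded replicate 1 (0.0781) or replicate 2 of that group (0.062) was left out. It also missed on log2(TPM + 1) (adjusted p = 0.087) and log2(TPM + 0.1) (0.0896). Of the 6 fits that left out a library, Trib3 passed in those without spironolactone replicate 1 or non-loaded replicate 3. Trib3 also missed with DESeq2 (adjusted p = 0.195), library totals (0.0531) and effective lengths as offset (0.0568). The same held on log2(TPM + 1) (0.169) and log2(TPM + 0.1) (0.171). Map3k12, the DLK gene, named after its values were seen, measured 142.6, 132.9 and 127.3 CPM with spironolactone, against 133.0, 140.5 and 141.2 CPM without (log2 fold change −0.04 ± 0.06, SE; edgeR adjusted p = 0.789). These genes are active in many cell types, and the cells in which they rose were not determined.

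**Figure D5:**
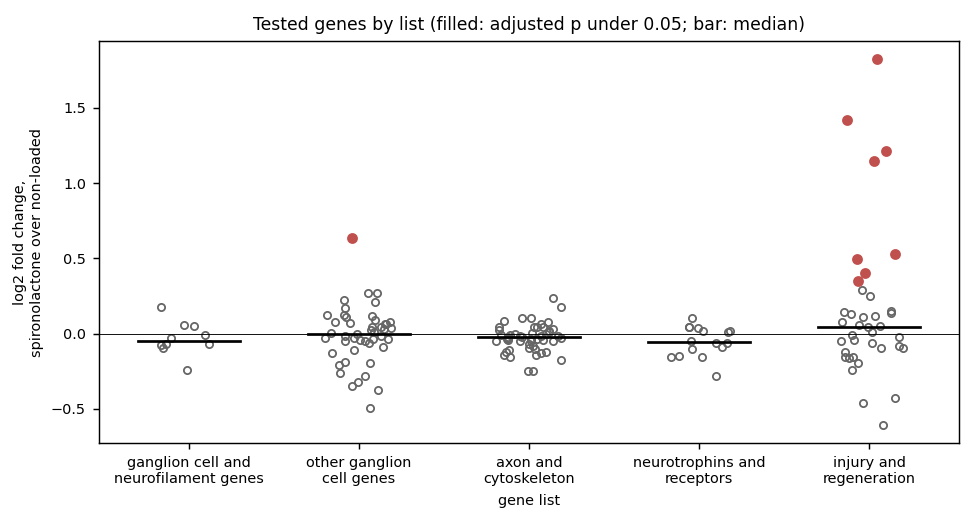
Log2 fold change of spironolactone over non-loaded retinas (vertical axis) of each tested gene in 5 lists, with filled points for an adjusted p under 0.05 and a bar at the median. The 10 ganglion cell and neurofilament genes lie between −0.25 and 0.18 with no filled point, while 8 of 38 genes of the injury list are filled, all above 0. The lists were chosen with earlier results of these data known.

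Markers of other cells that could be in the tissue were read beside the set. Over all tested genes, edgeR called 2.63% in either direction. In lists as short as these, 0 called genes does not show that a cell type was unchanged. Nor does a lower sum show fewer cells, because a sum is carried by its most abundant genes. How often sums of other lists fail to overlap between the groups was not computed. Amacrine markers, whose cells share the ganglion cell layer, summed to 3516 to 3610 CPM in spironolactone and 3623 to 3644 CPM in non-loaded libraries. Of these, 0 of 21 were called by edgeR and 1 higher by DESeq2, Slc6a9 (edgeR log2 fold change 0.19, adjusted p = 0.0664). Slc6a9 also passed with limma-voom (adjusted p = 0.0364), robust shrinkage (0.0382) and no filter on low counts (0.0482). It passed in 0 of the fits that left out a library. Slc32a1 had a log2 fold change of −0.13. Horizontal cell markers, whose cells also contain neurofilaments, summed to 471 to 488 CPM in spironolactone and 491 to 525 CPM in non-loaded libraries, with 1 of 8 lower, against 0.763% of all tested genes. This was Slc12a7 (log2 fold change −0.33, edgeR adjusted p = 0.0357, and 0.227 on log2(TPM + 1)). Of the fits that left out a library, Slc12a7 passed in the one without spironolactone replicate 1 (edgeR adjusted p from 0.0607 to 0.203 in the others). Of the myelin markers of the optic nerve 7 of 14 passed the filter, Cnp was at 31.7 to 34.7 CPM in spironolactone and 34.1 to 38.1 CPM in non-loaded libraries, Mobp and Opalin were at 0 counts in all 6 libraries, and the sum was 59.2 to 63.6 CPM in spironolactone and 67.2 to 71.3 CPM in non-loaded libraries. Of the 7, 0 were called by edgeR and by DESeq2, with Mbp at a log2 fold change of −0.37 (adjusted p = 0.279). Astrocyte markers summed to 428 to 479 CPM in spironolactone and 493 to 505 CPM in non-loaded libraries, with 1 of 6 lower, against 0.763% of all tested genes. This was Gfap (−0.40, edgeR adjusted p = 0.00655, and 0.0913 on log2(TPM + 1)). For Thy1, which T cells and fibroblasts of the rat can also carry, 7 of 14 markers of those cells passed the filter, Cd3d was at 0 counts in all 6 libraries, and 0 were called by edgeR and by DESeq2. Their sum was 59.6 to 70.0 CPM in spironolactone and 63.9 to 66.2 CPM in non-loaded libraries. Col1a1 (1.46, adjusted p = 0.0723) and Col3a1 (1.47, adjusted p = 0.146) were at most 2.26 CPM in any library. Pigment epithelium markers summed to 58.9 to 130.8 CPM in spironolactone and 114.3 to 141.7 CPM in non-loaded libraries, with 0 of 10 called by edgeR and a median log2 fold change of −0.41. Spironolactone replicate 3 was the lowest library, with 17.7 CPM of Ttr where spironolactone replicates 1 and 2 had 55.1 and 44.6 CPM, against 47.9 to 62.5 CPM in non-loaded libraries. Rpe65 (−0.60, edgeR adjusted p = 0.232) and Ttr (−0.51, 0.296) did not pass, but both did with no filter on low counts (0.0332 for Rpe65 and 0.0156 for Ttr) and without spironolactone replicate 1 (0.0255 for Rpe65 and 0.0361 for Ttr). Without spironolactone replicate 3 their log2 fold changes were −0.31 for Rpe65 and −0.17 for Ttr. The part of these cells in the values of the ganglion cell genes was not tested.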

How the data were processed

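RNA from the neuroretina of 6 rat samples had been sequenced from stranded mRNA libraries, per the labels' protocols. The submitters' processing notes name STAR 2.5.3a, RSEM 1.2.28, Trimmomatic, FastQC and rn6, without settings. Not given in the sources used here were the annotation version and whether counting used strand; without strand, reads of overlapping antisense genes cannot be told apart. Expected counts per gene without normalisation were deposited by the authors as RSEM output, per the file headers. The same tables hold the authors' deposited TPM, gene lengths and FPKM, of which FPKM entered no test. RSEM divides reads shared by several genes.

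Expected counts were rounded, filtered with filterByExpr by group and compared with edgeR 4.0.16 (TMM factors, quasi-likelihood test, two-sided) in R 4.3.3; p-values were adjusted by the Benjamini-Hochberg method across the 13242 genes kept, and 0.05 was the limit. The test was checked on simulated counts. SEs were obtained as |log2 fold change| / √F, and 95% intervals use them with the fit's degrees of freedom. CPM use TMM factors. Single values per sample were compared by exact permutation.

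The genes of the set, and the 11 other lists, were chosen with earlier results of these data known. Named from those lists are the paralogues, up to 6 called genes of each list or, with none called, the 2 with the smallest p, and the 5 genes with the most similar profile; exceptions are stated. Of the listed names, Bbc3, Col1a2, Hrk, Onecut3 and Trac were not matched and not analysed here. A few other listed genes are not reported here. Alternatives were RLE factors, library totals, DESeq2 1.42.0, limma-voom and limma-trend (limma 3.58.1) on log2(TPM + 1) and log2(TPM + 0.1), robust shrinkage, other filters, effective lengths as offset, and each library left out. Promoters came from RefSeq (GRCr8), another build than the submitters', and were matched by symbol.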

Additional observations from a re-analysis of the deposited data

How the results depend on the processing

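The counts of 0 higher and 0 lower among the 10 ganglion cell and neurofilament genes were the same in all 16 alternatives, 6 of which left out a library. DESeq2, one of the 16, gave no adjusted p for Rbpms, Pou4f1, Pou4f2 and Isl2. Their lowest adjusted p was 0.224 (Nefl without non-loaded replicate 3), and unadjusted p fell under 0.05 for Rbpms without spironolactone replicate 2 (0.0183) and for Nefl (0.0195) and Thy1 (0.0264) without non-loaded replicate 3. The sign changed in 4 alternatives each for Nefh and Sncg, in 1 each for Pou4f1, Pou4f2, Nefm and Isl2, and in none for the other 4. Summed levels and ratios moved by less than the SD between libraries. Over the whole table, 247 genes higher and 101 lower became 439 and 163 with no filter on low counts, 82 and 18 on log2(TPM + 1), and 79 and 16 on log2(TPM + 0.1), a share higher of 71.0%, 72.9%, 82.0% and 83.2%. Leaving out a library gave 81 to 421 higher and 30 to 200 lower genes. Among the genes of the other lists, 2 lower genes became 4 with DESeq2, 4 with robust shrinkage, 6 with no filter, 0 on log2(TPM + 1), 0 on log2(TPM + 0.1) and 1 to 6 without a library, against 9 higher genes that became 6 to 11. The cause of these shifts was not tested. No paired analysis was possible because the labels number no replicates and tie no sample of one group to one of the other; the numbers used here only name the samples. The widest intervals were those of Rbpms, Pou4f1, Pou4f2 and Isl2, which had at most 159 counts in a library; the spread of Rbpms and Isl2 with spironolactone (coefficients of variation of 26.2% and 52.8%) was wider than counting error (9.08% and 16.0%).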
